A study of Mus musculus with 35 samples.

Results

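The 10 genes followed here are known from reactive astrocytes: Gfap, Vim, Cd44, Timp1, Serpina3n, Tgm1, Emp1, Steap4, Cp and S1pr3. Every probe set that the array annotation assigns to one of them alone was taken, which gave 28 of the 45037 non-control probe sets on the Affymetrix mouse arrays. The arrays were hybridised with total RNA of 1 brain hemisphere from male mice, either beta2 adrenergic receptor knockout mice on the FVB background or wild type FVB mice. The groups were 7 knockout arrays of the ischemic hemisphere after middle cerebral artery occlusion (MCAO, a model of stroke), 3 knockout arrays of the operated side after sham surgery, 7 wild type MCAO arrays and 3 wild type sham arrays, all taken 24 h after surgery, and 7 knockout and 8 wild type arrays of naive, unoperated brain. The labels name the knockout without a promoter or a cell type, give no age, and do not say whether each array is a separate animal, so that p-values measure only the spread between arrays. The hemisphere is a mixture of injured and uninjured tissue of all its cell types.

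Astrocytes answer injury of the brain with a change of shape and of gene expression called reactive astrogliosis, in which they enlarge their intermediate filament skeleton and secrete proteins that act on matrix, vessels and immune cells. Cytokines of the interleukin-6 family act on astrocytes through the receptor chain gp130 and the transcription factor Stat3, one of the signals known to drive this state. The beta2 adrenergic receptor, which binds noradrenaline and raises cyclic AMP, is present on astrocytes as well as on immune and vascular cells. Not one of the 10 genes is restricted to astrocytes: Vim, Cd44 and Timp1 are also made by vessels, meninges and immune cells, and Cp by the choroid plexus.

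Values are log2 signals as deposited, so that a difference of 1 is a 2-fold difference of signal, and the files hold no detection call. A change was called at an adjusted p under 0.05 in limma's moderated test, with Benjamini-Hochberg adjustment across the 45037 probe sets. A gene with several probe sets is represented by the brightest of them on average over the arrays of a fit (the main probe set). In the surgery arrays that average includes the MCAO arrays, so a probe set that rises after MCAO is more readily chosen. The 3 prime minus 5 prime difference of the actin control probe sets, a measure of RNA integrity or labelling, averaged 1.01 ± 0.52 in knockout MCAO arrays (SD, n = 7) and 1.66 ± 0.083 in knockout sham arrays (n = 3), 0.87 ± 0.44 in wild type MCAO arrays (n = 7) and 0.93 ± 0.077 in wild type sham arrays (n = 3). It was thus higher in every knockout sham array than in any wild type sham array. In whole-hemisphere RNA, fewer cells of a type and less RNA per cell cannot be told apart.

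By main probe set all 10 genes were higher after MCAO than after sham surgery, in knockout and in wild type mice. The choice of that probe set used the MCAO arrays, so counts over all 28 probe sets are given beside it. By probe set, 21 of the 28 were called higher and 1 lower in knockout mice, where 10.8% of all probe sets were called higher and 7.94% lower. In wild type mice 24 of the 28 were called higher and 0 lower, against 5.11% and 5.59% of all probe sets. The median change of the 10 genes was 2.76 on the log2 scale in knockout mice and 2.42 in wild type mice, beside medians over all 18193 genes of -0.00 and 0.05. Over the 28 probe sets the medians were 2.15 and 2.03, beside -0.06 and 0.03 over all probe sets. In knockout mice every MCAO array lay above every sham array for 9 of the 10 genes, and in wild type mice for all 10. By probe set this was so for 19 of the 28 in knockout and 24 in wild type mice, beside 11.2% and 7.97% of all probe sets.

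**Figure D1:**
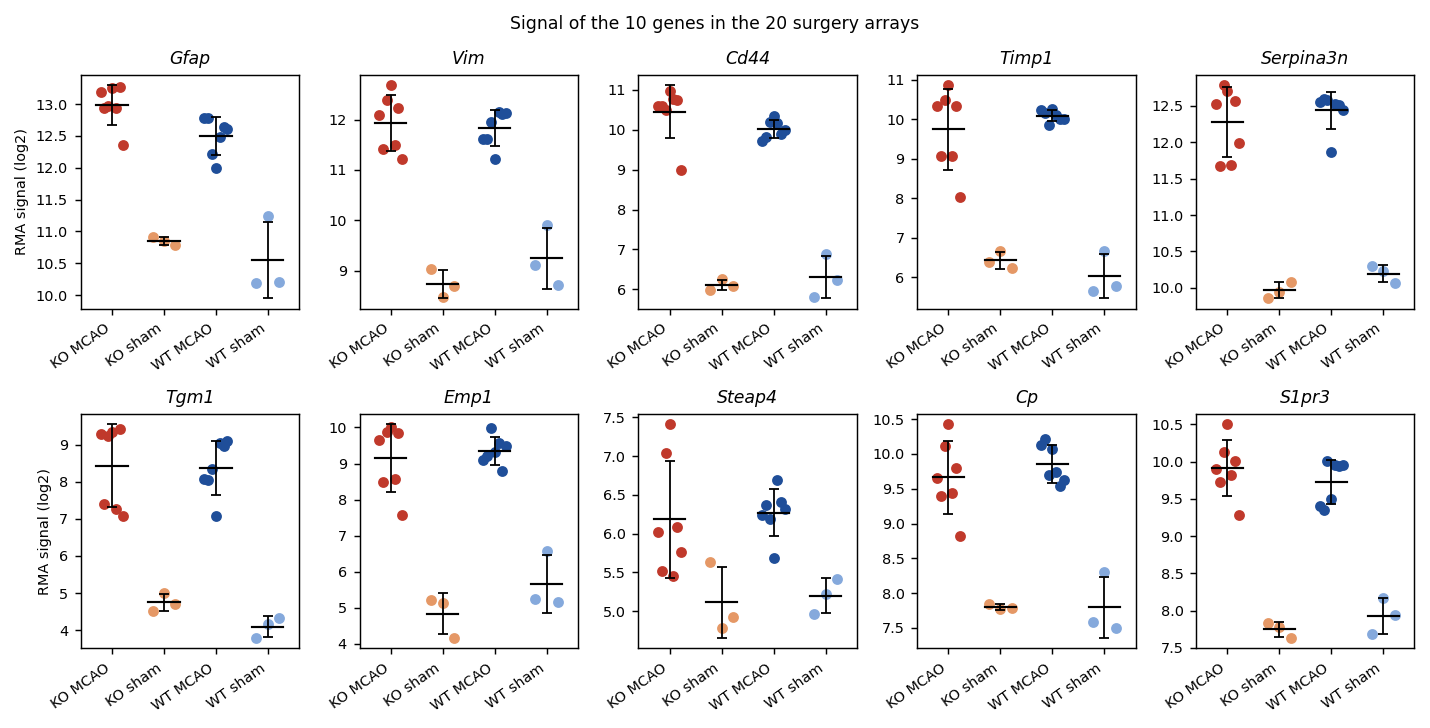
Signal (log2, RMA) of the 10 genes in the 20 surgery arrays, 1 panel per gene on its own axis, by group (knockout, KO, and wild type, WT). Each point is 1 array, the line is the group mean and the bar 1 SD; the MCAO arrays lie above the sham arrays of their genotype in every panel except that of Steap4 in knockout mice, where the groups overlap, and the knockout MCAO arrays of Timp1, Tgm1 and Emp1 split into a lower set of 3 and a higher set of 4.

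Gfap codes for the intermediate filament protein that defines astrocytes in histology. Its signal in knockout MCAO arrays had a lowest value of 12.36, a median of 12.97 and a highest value of 13.27, against 10.91, 10.86 and 10.79 in the 3 knockout sham arrays. In wild type MCAO arrays it ran from 11.99 over a median of 12.61 to 12.79, against 10.19, 11.25 and 10.21 in wild type sham arrays. MCAO and sham arrays did not overlap in either genotype, and 1 wild type sham array stood about 1 unit above the other two. Gfap rose by 2.13 in knockout mice (SE 0.22, 4.39-fold, adjusted p = 2.43e-06) and by 1.95 in wild type mice (SE 0.22, 3.87-fold, adjusted p = 1.15e-05).

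Vim codes for vimentin, the filament protein that reactive astrocytes build in beside Gfap and that vessel and mesenchymal cells also carry. Knockout MCAO arrays held a lowest value of 11.21, a median of 12.09 and a highest of 12.68, against 9.03, 8.47 and 8.70 in knockout sham arrays. Wild type MCAO arrays held 11.22, 11.96 and 12.16 in the same order, against 9.11, 9.90 and 8.71 in wild type sham arrays. All MCAO arrays again stood clear of the sham arrays. The rise of Vim was 3.20 in knockout mice (SE 0.29, 9.19-fold, adjusted p = 7.56e-07) and 2.59 in wild type mice (SE 0.29, 6.02-fold, adjusted p = 1.54e-05).

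Cd44 codes for a surface receptor of hyaluronan and osteopontin. In knockout MCAO arrays its lowest, median and highest signals were 8.98, 10.60 and 10.97, against 5.99, 6.25 and 6.08 in knockout sham arrays. In wild type MCAO arrays they were 9.73, 9.98 and 10.35, against 5.81, 6.87 and 6.23 in wild type sham arrays. The lowest knockout MCAO array, number 7, lay well below the other 6, of which the lowest had 10.50, and still above every sham array. Cd44 had the largest change of the 10 genes in knockout mice, 4.35 (SE 0.29, 20.3-fold, adjusted p = 1.84e-08), and changed by 3.72 in wild type mice (SE 0.29, 13.1-fold, adjusted p = 1.68e-07).

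Timp1 codes for a secreted inhibitor of matrix metalloproteinases. Knockout MCAO arrays ran from 8.03 over a median of 10.35 to 10.87, against 6.38, 6.66 and 6.23 in knockout sham arrays. Wild type MCAO arrays lay closely together, from 9.87 over 10.11 to 10.26, against 5.64, 6.67 and 5.77 in wild type sham arrays. The groups were apart in both genotypes, but the knockout MCAO arrays covered a wider range than the wild type ones. Timp1 rose by 3.32 in knockout mice (SE 0.41, 10.0-fold, adjusted p = 2.16e-05) and by 4.07 in wild type mice (SE 0.41, 16.8-fold, adjusted p = 4.43e-06).

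Serpina3n codes for a secreted inhibitor of serine proteases. Its lowest, median and highest signals were 11.68, 12.52 and 12.78 in knockout MCAO arrays, against 9.87, 9.95 and 10.08 in knockout sham arrays, and 11.87, 12.52 and 12.59 in wild type MCAO arrays, against 10.30, 10.23 and 10.06 in wild type sham arrays. The medians after MCAO were equal to 2 decimals. Its rise was 2.31 in knockout mice (SE 0.21, 4.96-fold, adjusted p = 9.03e-07) and 2.24 in wild type mice (SE 0.21, 4.73-fold, adjusted p = 2.53e-06).

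Tgm1 codes for a transglutaminase, an enzyme that crosslinks proteins, and Emp1 for a small membrane protein of the peripheral myelin protein family; both stand on published lists of the reactive state after ischemia. Tgm1 in knockout MCAO arrays ran from 7.08 over 9.23 to 9.42, against 4.53, 5.001 and 4.71 in knockout sham arrays. In wild type MCAO arrays it ran from 7.08 over 8.35 to 9.10, against 3.80, 4.16 and 4.33 in wild type sham arrays. It rose by 3.69 in knockout mice (SE 0.51, 12.9-fold, adjusted p = 5.71e-05) and, the largest change of the 10 genes there, by 4.29 in wild type mice (SE 0.51, 19.5-fold, adjusted p = 2.43e-05).

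Emp1 ran from 7.57 over 9.64 to 10.03 in knockout MCAO arrays, against 5.20, 5.13 and 4.16 in knockout sham arrays. In wild type MCAO arrays it ran from 8.79 over 9.32 to 9.99, against 5.23, 6.57 and 5.14 in wild type sham arrays. For both Tgm1 and Emp1 the MCAO and sham groups were fully apart. Emp1 rose by 4.32 in knockout mice (SE 0.44, 20.0-fold, adjusted p = 2.56e-06) and by 3.71 in wild type mice (SE 0.44, 13-fold, adjusted p = 2.43e-05).

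Steap4, a metalloreductase that reduces iron and copper, had the smallest change. Its lowest, median and highest signals were 5.45, 6.02 and 7.41 in knockout MCAO arrays, against 5.63, 4.78 and 4.92 in knockout sham arrays. In wild type mice they were 5.68, 6.31 and 6.69 after MCAO, against 4.96, 5.22 and 5.41 after sham surgery. The knockout groups overlapped, since 2 MCAO arrays (5.45 and 5.52) lay below the highest sham array, and the wild type groups did not. Steap4 rose by 1.07 in knockout mice (SE 0.33, 2.10-fold, adjusted p = 0.0282) and by 1.08 in wild type mice (SE 0.33, 2.11-fold, adjusted p = 0.0399). Both calls were near the threshold: without knockout sham array 2 or 3 the knockout change was 0.91 (adjusted p = 0.141) or 0.98 (adjusted p = 0.128), with the actin difference as a covariate it was 0.77 (adjusted p = 0.195), and the wild type call was lost in 8 of the 10 fits that left out 1 wild type array, with adjusted p up to 0.170.

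Cp codes for ceruloplasmin, the copper-carrying ferroxidase that astrocytes hold on their membrane and that helps iron leave cells. Knockout MCAO arrays ran from 8.82 over 9.66 to 10.42, against 7.85, 7.77 and 7.79 in knockout sham arrays, and wild type MCAO arrays from 9.54 over 9.75 to 10.21, against 7.59, 8.30 and 7.50 in wild type sham arrays. The groups were apart in both genotypes, and the 3 knockout sham arrays lay closer together than the wild type ones. Cp rose by 1.86 in knockout mice (SE 0.25, 3.63-fold, adjusted p = 4.10e-05) and by 2.06 in wild type mice (SE 0.25, 4.17-fold, adjusted p = 2.75e-05).

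S1pr3, a receptor for the lipid messenger sphingosine 1-phosphate, ran from 9.28 over 9.90 to 10.50 in knockout MCAO arrays, against 7.83, 7.79 and 7.64 in knockout sham arrays. In wild type MCAO arrays it ran from 9.35 over 9.95 to 10.00, against 7.68, 8.17 and 7.94 in wild type sham arrays. Its MCAO and sham arrays did not overlap. It rose by 2.16 in knockout mice (SE 0.20, 4.47-fold, adjusted p = 7.41e-07) and by 1.80 in wild type mice (SE 0.20, 3.48-fold, adjusted p = 1.04e-05).

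The probe sets of a gene did not all move alike. The 3 of Gfap changed by 2.13 to 3.03 in knockout mice and by 1.95 to 2.28 in wild type mice, and the 3 of Vim by 3.20 to 3.85 and by 2.24 to 2.59. Of the 4 probe sets of Cd44, 1434376_at, 1423760_at and 1452483_a_at rose by 4.35, 4.13 and 2.97 in knockout mice and by 3.72, 3.73 and 3.17 in wild type mice. The remaining one, 1443265_at, fell by 0.42 in knockout mice (adjusted p = 0.0152), with overlapping groups and signals of 3.94 to 4.14 after MCAO against 4.12 to 4.74 after sham surgery, and changed by 0.09 in wild type mice (adjusted p = 0.668).

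Among the 8 probe sets of Cp the changes spanned 0.08 to 2.21 in knockout mice and 0.21 to 2.52 in wild type mice. Of them 5 were called in knockout mice and 6 in wild type mice, and 1417497_at was not called in either. Cp 1417496_at rose by 1.64 in wild type mice (adjusted p = 0.00398) and was not called in knockout mice (0.70, adjusted p = 0.152). The lesser probe set of Emp1, 1459171_at, changed by -0.18 in knockout mice (adjusted p = 0.271) and by 0.31 in wild type mice (adjusted p = 0.0995). In sham arrays it was brighter than the main one, at means of 6.06 against 4.83 in knockout and 5.75 against 5.65 in wild type mice. The lesser probe set of Steap4, 1425829_a_at, changed by -0.11 in knockout mice (adjusted p = 0.546) and rose by 0.50 in wild type mice (adjusted p = 0.0112). Its mean was 5.71 against 5.11 for the main one in knockout sham arrays, and 5.17 against 5.20 in wild type sham arrays. S1pr3 1460661_at changed by 0.41 in knockout mice (adjusted p = 0.270) and rose by 1.0 in wild type mice (adjusted p = 0.0160).

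**Figure D2:**
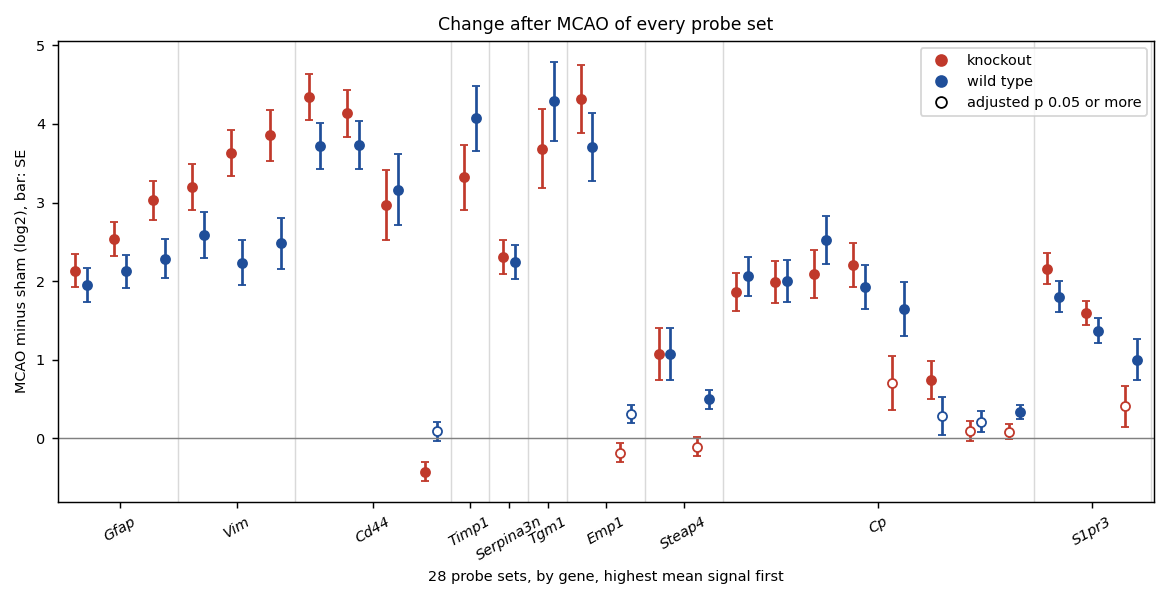
Change after MCAO (MCAO minus sham, log2; bars are limma's SE) of each of the 28 probe sets, grouped by gene, with knockout left of wild type. Filled points were called at an adjusted p under 0.05; the main probe sets lie between 1.07 and 4.35, and the open points, from -0.18 to 0.70, belong to lesser probe sets of Cd44, Emp1, Steap4, Cp and S1pr3.

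All 10 genes had an entry in the RefSeq promoter table (build GRCm38.p6), 13 starts in all. Because the genes rose together and stand downstream of cytokine signals in the textbook account, the 250 bases before each start were searched on both strands for 4 motifs. The STAT motif TTCNNNGAA was present in 3 of the 13 promoters, those of Emp1, Steap4 and Tgm1, and in 7.02% of the 32851 promoters of the table. The AP-1 motif, written loosely as TGANTCA with any middle base, was present in 2 (Cp and Emp1) and in 6.75% of all. The pattern TTGCNNCAA, searched for under the name C/EBP, was present in 1 (Emp1) and in 1.74% of all. It cannot match the usual palindromic C/EBP site, so sites of that form were not searched for. A motif of NF-kappaB was present in 0 and in 0.356% of all. The 4 promoters that held a motif are shown 5′ to 3′ on the strand of the gene, ending at the base before the start, with the matches in capitals.
Emp1, chr6:135362681-135362930, plus strand: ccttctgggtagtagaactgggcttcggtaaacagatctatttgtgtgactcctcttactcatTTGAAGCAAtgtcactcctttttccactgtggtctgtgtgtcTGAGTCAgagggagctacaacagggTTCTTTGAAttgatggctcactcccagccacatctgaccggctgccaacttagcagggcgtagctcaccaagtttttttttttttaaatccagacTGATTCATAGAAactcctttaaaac
Tgm1, chr14:55713493-55713742, minus strand: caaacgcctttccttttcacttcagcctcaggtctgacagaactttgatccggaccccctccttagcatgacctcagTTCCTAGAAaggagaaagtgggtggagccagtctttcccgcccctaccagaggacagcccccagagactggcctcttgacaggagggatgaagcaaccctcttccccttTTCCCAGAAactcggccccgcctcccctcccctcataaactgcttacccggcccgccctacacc
Steap4, chr5:7960222-7960471, plus strand: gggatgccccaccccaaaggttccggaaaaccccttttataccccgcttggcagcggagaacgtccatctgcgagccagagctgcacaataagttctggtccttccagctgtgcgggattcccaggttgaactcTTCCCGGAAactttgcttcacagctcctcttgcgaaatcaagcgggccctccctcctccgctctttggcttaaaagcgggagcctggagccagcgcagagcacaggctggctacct
Cp, chr3:19956804-19957053, plus strand: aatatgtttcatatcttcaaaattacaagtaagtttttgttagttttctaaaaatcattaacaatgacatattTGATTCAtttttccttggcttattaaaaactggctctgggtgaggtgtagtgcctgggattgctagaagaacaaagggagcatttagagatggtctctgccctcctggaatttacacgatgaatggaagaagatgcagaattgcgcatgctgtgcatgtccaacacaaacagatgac

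In the Emp1 promoter the capitals first mark a match, on the minus strand, of the pattern searched for under the name C/EBP. An AP-1 match and a STAT match follow. In the last run an AP-1 match from 25 to 19 bases before the start and a STAT match from 22 to 14 bases before it overlap. Tgm1 held 2 STAT matches, at 173 to 165 and at 64 to 56 bases before the start. Steap4 held 1 STAT match at 116 to 108 bases, and Cp 1 AP-1 match at 177 to 171 bases. The Cp match and the last AP-1 match of Emp1 have T as the middle base, where the usual AP-1 site has C or G. The genes with the 3 largest changes in knockout mice were Cd44, Emp1 and Tgm1, of which the first held none of the motifs in this window; Steap4, with the smallest change, held one. A match is a description of the letters, and binding was not measured.

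The response to MCAO did not differ detectably between the genotypes in any of the 10 genes by main probe set. The difference of the changes, knockout minus wild type, ran from -0.75 for Timp1 (95% interval -1.97 to 0.47) to 0.63 for Cd44 (-0.24 to 1.49). Of the 10 genes 0 were called by limma and 0 had an unadjusted p under 0.05. Of all genes 3.39% were called with a larger and 4.64% with a smaller change in knockout mice. The absence of a call among 10 genes therefore does not set them apart from others. Of all 45037 probe sets 13006 had an unadjusted p under 0.05. The interval was narrowest for S1pr3 (-0.22 to 0.94 around 0.36) and widest for Tgm1 (-2.09 to 0.89 around -0.60), and it reached beyond 1 log2 unit for Vim, Cd44, Timp1, Tgm1 and Emp1. For Gfap the difference was 0.18 (-0.45 to 0.82), and for Serpina3n it was 0.07 (-0.56 to 0.70).

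**Figure D3:**
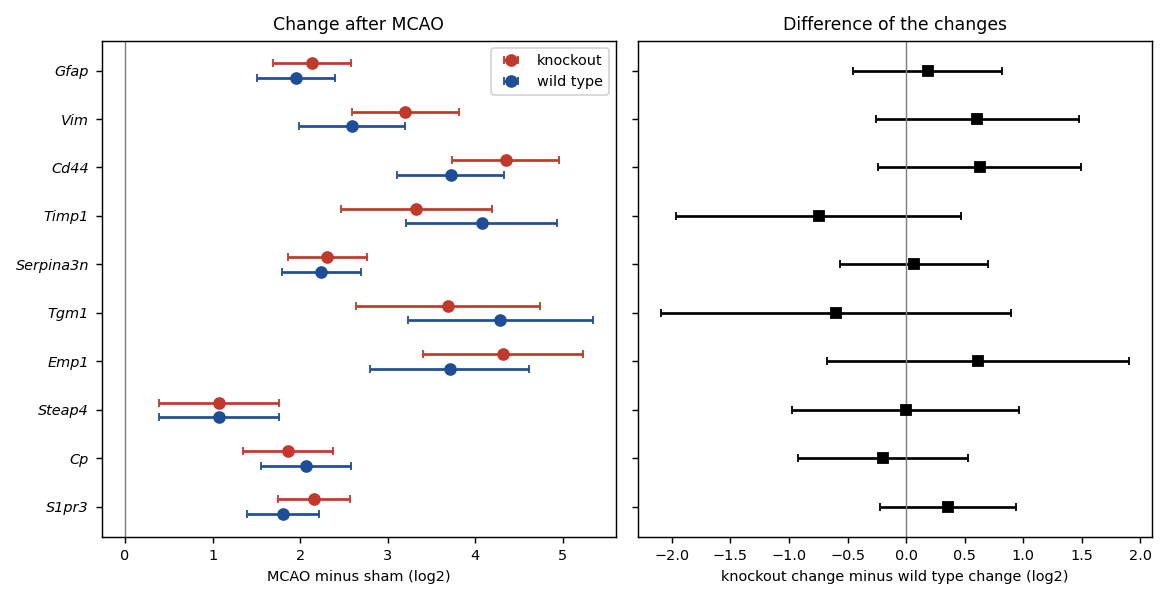
Left, change after MCAO (MCAO minus sham, log2) of each gene by its main probe set in knockout and wild type mice; right, knockout change minus wild type change. Bars are 95% confidence intervals from limma; all intervals on the left lie above 0 and all intervals on the right cross 0.

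Of the 28 probe sets, 1 was called with a larger and 1 with a smaller change in knockout mice, beside 3.1% and 4.31% of all probe sets, 7.41% in either direction. Vim 1438118_x_at had a difference of 1.40 (SE 0.41, adjusted p = 0.0441), and Steap4 1425829_a_at one of -0.61 (SE 0.17, adjusted p = 0.0399). Both come with a difference between the sham groups, which enters the difference of changes with the opposite sign. The suffix x marks a probe set whose probes may also match other sequences, and the neighbouring Vim 1456292_a_at had a difference of 1.37 that was not called (adjusted p = 0.0626).

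After sham surgery 3 of the 28 probe sets were called between the genotypes, against 4.67% of all probe sets. Vim 1438118_x_at had 8.15, 6.95 and 7.46 in knockout sham arrays, against 8.65, 9.52 and 8.39 in wild type sham arrays, a difference of -1.33 (SE 0.34, adjusted p = 0.0338). Vim 1456292_a_at had 7.75, 6.49 and 6.57 in knockout sham arrays, against 7.95, 8.99 and 7.88 in wild type sham arrays, and was lower by -1.34 (SE 0.38, adjusted p = 0.0470). Steap4 1425829_a_at had 5.46, 5.80 and 5.86 in knockout sham arrays, against 5.22, 4.96 and 5.34 in wild type sham arrays, and was higher by 0.53 (SE 0.14, adjusted p = 0.0394). In all 3 the groups of 3 arrays did not overlap, as was so for 20.1% of all probe sets with the knockout arrays above and 19.1% with them below.

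The main probe sets of the 10 genes were not called after sham surgery (0 of 10 also at an unadjusted p under 0.05). Of all genes 2.92% were called higher and 2.08% lower there, and 10886 of all 45037 probe sets had an unadjusted p under 0.05. Tgm1 had 4.53, 5.001 and 4.71 in knockout sham arrays, all above the 3.80, 4.16 and 4.33 of wild type sham arrays, a difference of 0.65 (SE 0.60, adjusted p = 0.525); fitted on the 6 sham arrays alone its adjusted p was 0.0380. The actin difference moved with genotype in these arrays, at 1.60 to 1.76 in knockout sham arrays against 0.86 to 1.01 in wild type sham arrays. With it as a covariate 0 of the 28 probe sets were called between the sham groups and 0 in the difference of changes. Both counts also went to 0 without any one of wild type sham arrays 1 and 2 and knockout sham arrays 2 and 3, the sham count without wild type sham array 3, and the count for the difference of changes without any one of wild type MCAO arrays 6 and 7 and knockout MCAO arrays 3 and 5; that count was 4 without knockout sham array 1.

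Between the ischemic hemispheres of the 2 genotypes, limma called 0 of the 28 probe sets, against 0.131% of all, and 5 of 28 had an unadjusted p under 0.05, beside 7533 of all 45037. Gfap was 0.48 higher in knockout MCAO arrays (SE 0.17, 95% interval 0.14 to 0.83, unadjusted p = 0.0086, adjusted p = 0.178), with overlapping groups, and its probe set 1426509_s_at differed by 0.50 (adjusted p = 0.162). S1pr3 1437173_at differed by 0.40 (SE 0.12, adjusted p = 0.138), and the Cp probe sets 1417496_at and 1441326_at by -0.72 (adjusted p = 0.203) and -0.17 (adjusted p = 0.239). The other main probe sets differed by -0.35 (Timp1) to 0.43 (Cd44). Without knockout MCAO array 7, in which Cd44 stood lowest, Cd44 was called at 0.67 higher in knockout mice (adjusted p = 0.0413) and its difference of changes at 0.87 (adjusted p = 0.0447).

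By main probe set the 10 genes varied more among knockout MCAO arrays than among wild type ones. The SD was larger in the knockout arrays for all 10 genes, with a median ratio of 1.90, while 47.6% of all probe sets had the larger SD there and their median ratio was 0.97. By the ratio of the SDs Timp1 stood first, with an SD of 1.03 in knockout and 0.14 in wild type MCAO arrays, followed by Cd44 with 0.67 and 0.23. For Gfap the SDs were close, 0.31 and 0.30. Some lesser probe sets had the smaller SD in knockout arrays. They were Gfap 1426509_s_at, Cd44 1443265_at, Emp1 1459171_at, Steap4 1425829_a_at, and Cp 1417497_at and 1441326_at. These are descriptions of 7 arrays a group, with no test. The wider spread was not particular to the 10 genes. The mean of further genes of the general reactive state, taken up below, was 8.29 to 9.33 in knockout and 8.85 to 9.17 in wild type MCAO arrays.

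The same arrays stood low or high in gene after gene. Knockout MCAO array 7 was the lowest of its group in 8 of the 10 genes and array 4 the highest in 7, where 18.0% and 22.6% of all probe sets had that array lowest or highest. Arrays 2, 5 and 7 were the 3 lowest of the group in 9 of the 10 genes, as in 6.39% of all probe sets; Cd44, lowest in array 7 alone, was the exception. For Tgm1 these 3 arrays reached at most 7.39 and the other 4 at least 9.23, for Timp1 9.08 and 10.35, and for Emp1 8.57 and 9.64. The trio was picked out after the values were seen, and its arrays 2 and 5 correlated with each other at r = 0.997 over all probe sets.

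Other gene lists, taken up below, differed between these arrays as well, so the split was not particular to the 10 genes. In arrays 2, 5 and 7 and in the other 4, further genes of the general reactive state had means of 8.29 to 8.43 and 9.17 to 9.33. Those of the ischemic (A2) list had 8.10 to 8.50 and 9.30 to 9.46, and those of the neuroinflammatory (A1) list 8.10 to 8.28 and 8.67 to 9.07. Oligodendrocyte markers had 10.64 to 10.67 and 10.93 to 11.23. The mean of 12 infiltrating neutrophil and monocyte markers was 5.38 to 5.56 in knockout MCAO arrays 2, 5 and 7 and 5.97 to 6.54 in the other 4, while knockout sham arrays had 5.44 to 5.61. The mean of 11 endothelial markers was 7.82 to 7.95 and 8.27 to 8.74, that of 16 genes of the Stat3 axis 8.24 to 8.28 and 8.91 to 9.20, and that of 12 neuron markers 11.78 to 11.87 and 11.63 to 11.74. The means of 15 astrocyte identity markers overlapped, at 10.19 to 10.44 and 10.36 to 10.69, as did the actin differences, at 0.43 to 1.15 and 0.49 to 1.75. Those of the microglia, meningeal and choroid plexus markers overlapped too. The part of these markers in the spread of the 10 genes was not tested.

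**Figure D4:**
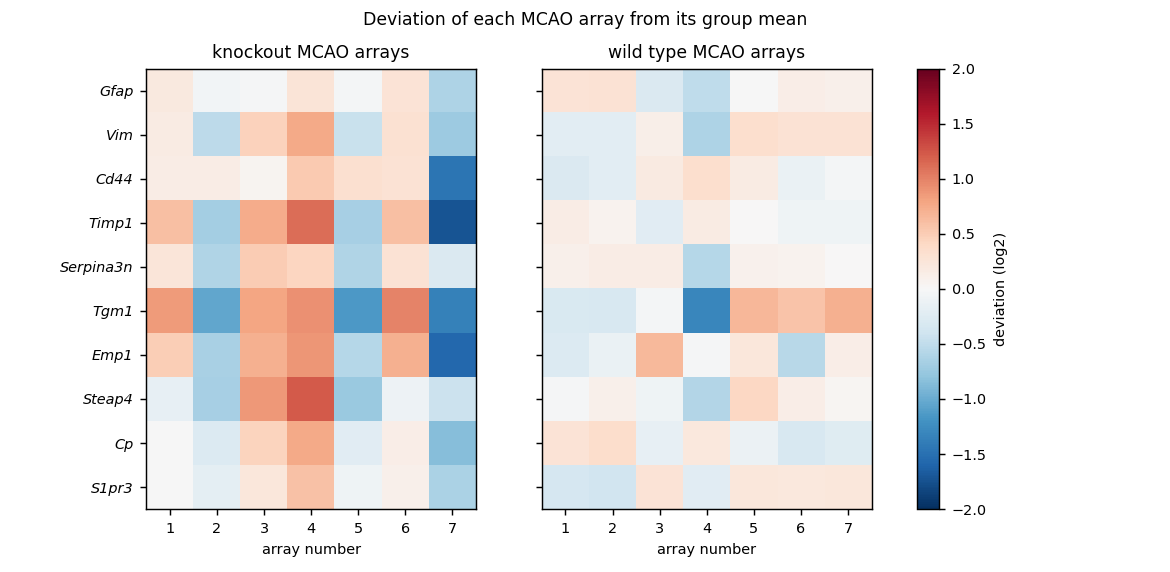
Deviation of each MCAO array from the mean of its group (log2, colour scale from -2 to 2) for the 10 genes, with the 7 knockout arrays left and the 7 wild type arrays right. Knockout arrays 2, 5 and 7 are low in nearly every gene and array 4 is high, whereas no wild type array deviates in the same direction throughout; wild type array 4 is low in Gfap, Vim, Serpina3n, Tgm1 and Steap4 and not in Cd44, Timp1 or Cp.

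How the genes vary together was examined over the 7 MCAO arrays of each genotype, 45 pairs of genes in each and 90 in all, with exact permutation tests. These tests treat the 7 arrays as exchangeable, but some arrays were closest to each other over all probe sets. In wild type mice these were arrays 1 and 2 (r = 0.998) and arrays 5 and 7 (0.996). In knockout mice they were arrays 1 and 6 (0.997) and arrays 2 and 5 (0.997). The p-values can therefore overstate the independent evidence. Because the knockout arrays fall into separate sets in most of the genes, no correlation is given for them; 20 of their pairs and 3 of the wild type pairs had an adjusted p under 0.05, and 9 pairs in all did without knockout MCAO array 7. The share among pairs of other genes was not computed, so these counts do not set the 10 genes apart from others. In wild type arrays Gfap and Cd44 went opposite ways, with Pearson's r = -0.942 (two-sided exact permutation p = 0.000397, adjusted p = 0.00298 over the 90 pairs) and Spearman's rho = -0.964 (exact permutation p = 0.00278); r was -0.960 without the 2 arrays farthest from the median of Gfap. Vim and Tgm1 went together in wild type arrays, with r = 0.980 (exact permutation p = 0.00119, adjusted p = 0.00824), rho = 0.929 (exact permutation p = 0.00675) and r = 0.939 without the 2 farthest arrays. S1pr3 in wild type MCAO arrays fell into 2 sets, 9.35 to 9.50 in arrays 1, 2 and 4 and 9.95 to 10.00 in arrays 3, 5, 6 and 7, and Cp was 10.07 to 10.21 in the first and 9.54 to 9.75 in the second.

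Further genes known from reactive astrocytes rose as well. Of 13 further genes of the general reactive state 11 rose in knockout mice and 12 in wild type mice, and 0 fell, beside 14.9% and 7.41% of all genes called higher and 7.59% and 6.26% called lower. The largest changes were those of Lcn2, an iron-binding acute-phase protein, at 4.91 and 5.61, Hspb1, a small heat shock protein, at 4.05 and 4.16, Cebpd, a transcription factor, at 3.89 and 3.33, and Lgals3, a lectin also made by phagocytes, at 3.75 in wild type mice. All 11 other genes of the ischemic (A2) list rose in both genotypes, led by Cd14, the lipopolysaccharide co-receptor, at 3.54 in knockout and 4.71 in wild type mice, the pentraxin Ptx3 at 3.34 and 3.73, and the membrane protein Tm4sf1 at 2.92 and 2.81. Of the 9 measured genes of the neuroinflammatory (A1) list 8 rose in each genotype, among them Srgn (2.91 and 2.83), the complement inhibitor Serping1 (2.31 and 1.89) and the interferon-induced Gbp2 (2.62 and 1.80). C3, a commonly used A1 gene, was not analysed here.

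The medians of these lists were 2.47 in knockout and 2.12 in wild type mice for the general list, 1.98 and 1.66 for the A2 list, and 1.05 and 1.24 for the A1 list. In the difference of changes and between genotypes after MCAO or sham surgery, 0 genes of the 3 lists were called. Of all genes 3.39% were called higher and 4.64% lower in the difference of changes, 0.044% and 0.033% between genotypes after MCAO, and 2.92% and 2.08% after sham surgery. Cd14, Srgn and Lgals3 are also made by phagocytes, so that membership of a list does not fix the cell that made the RNA.

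Upstream, 11 of 16 measured genes of the Stat3 axis rose in knockout mice and 8 in wild type mice, and 0 fell (medians 0.66 and 0.55). Of all genes 14.9% were called higher and 7.59% lower in knockout mice, and 7.41% and 6.26% in wild type mice. The oncostatin M receptor Osmr rose by 3.54 in knockout mice and 3.01 in wild type mice, Socs3, the feedback inhibitor that Stat3 induces, by 2.84 in each, and the cytokine gene Il6 by 3.25 and 4.80. Lifr, the receptor chain for leukaemia inhibitory factor, was lower by -0.49 in knockout sham arrays (adjusted p = 0.0405), where 2.08% of all genes were called lower. Without knockout sham array 3, 5 of all probe sets were called in that comparison, beside 2105 with all arrays. Direct partners of the 10 proteins (enzymes, ligands and family members) are counted against the shares of all genes after MCAO. Of 30, 9 rose and 1 fell in knockout mice, and 10 rose and 1 fell in wild type mice (medians 0.16 and 0.34). The metalloproteinase Mmp3 rose by 3.62 in knockout mice and 3.74 in wild type mice, the transglutaminase Tgm2 by 3.09 and 2.87, and Sphk1, which makes the ligand of S1pr3, by 2.06 and 2.26. The genes that fell, named after their values were seen, were the hyaluronan synthase gene Has3 in knockout mice (-0.50, adjusted p = 0.0208) and Slc40a1, the iron exporter that works with ceruloplasmin, in wild type mice (-0.70, adjusted p = 0.0245).

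Of 15 genes that mark astrocytes at rest 2 were called higher in each genotype, beside 14.9% of all genes in knockout and 7.41% in wild type mice, a share near that of all genes in knockout mice. In knockout mice they were Slc14a1, a urea transporter, at 1.95 and Aldh1l1, a folate enzyme, at 0.46. In wild type mice the same markers rose by 1.78 and 0.57, and Slc4a4, a bicarbonate transporter, fell by 0.71 (6.26% of all genes were called lower there). The list median was -0.00 in knockout and -0.19 in wild type mice, and the mean over the list was 10.19 to 10.69 in knockout MCAO arrays against 10.29 to 10.31 in knockout sham arrays, and 10.12 to 10.59 in wild type MCAO arrays against 10.40 to 10.45 in wild type sham arrays. Which cells made the RNA of the 10 genes was not measured.

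Markers of other cell types, some of which make some of the 10 genes, are counted against the same shares, 14.9% of all genes called higher and 7.59% lower in knockout mice, and 7.41% and 6.26% in wild type mice. Of 11 endothelial markers 5 rose in knockout and 4 in wild type mice and 0 fell, with Cdh5 at 1.61 and 1.49, Pecam1 at 1.31 and 1.23 and Vwf at 1.53 and 1.10. Of 12 meningeal and fibroblast markers 4 rose in knockout mice, led by Col3a1 at 1.49, Pdgfrb at 1.46 and Lum at 1.22, and 1 in wild type mice, Dcn at 1.96, a share near that of all genes. Of 12 infiltrating neutrophil and monocyte markers 3 rose in each genotype, S100a8 by 2.10 in knockout and 3.76 in wild type mice, S100a9 by 1.77 and 3.61, and the leukocyte gene Ptprc by 1.33 and 1.04, while the neutrophil granule genes Camp and Ltf fell in knockout mice (-0.46 and -0.42). Their mean by array was 5.38 to 6.54 in knockout MCAO arrays against 5.44 to 5.61 in knockout sham arrays, and 6.16 to 6.82 in wild type MCAO arrays against 5.26 to 5.38 in wild type sham arrays.

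Of 9 microglia markers 6 fell in each genotype, where 7.59% of all genes fell in knockout and 6.26% in wild type mice, among them P2ry12, a purinergic receptor of resting microglia, with a change of -1.62 in knockout and -2.71 in wild type mice, Selplg (-0.97 and -1.12), Gpr34 (-0.82 and -2.39) and P2ry13 (-0.73 and -1.38). Fcrls rose by 0.50 in knockout mice. Gpr34 and P2ry13 were called in the difference of changes, at 1.57 (adjusted p = 0.0196) and 0.65 (adjusted p = 0.0416), as were the neutrophil genes Mpo at -0.93 (adjusted p = 0.0460) and Camp at -0.56 (adjusted p = 0.0421). Without knockout sham array 3, 0 of all probe sets were called in the difference of changes, beside 3336 with all arrays. None of these calls was therefore kept without that array. Of 8 choroid plexus markers 0 were called in either genotype, with array means of 6.65 to 7.94 in knockout MCAO arrays against 7.11 to 7.41 in knockout sham arrays; 3 of 9 oligodendrocyte markers rose in knockout mice and 4 in wild type mice, with Cldn11 at 1.52 and 0.86 and Mobp at 0.70 and 0.84. Of 12 neuron markers 1 fell in knockout mice, a share near that of all genes, Pde10a of striatal neurons (-1.09), and 3 fell in wild type mice, Pde10a (-1.96), the glutamate receptor gene Gria2 (-0.88) and the neurofilament gene Nefl (-0.52). Between the sham groups Mpo was higher by 0.86 (adjusted p = 0.0393) and Cldn11 lower by -0.72 (adjusted p = 0.0420) in knockout mice. Without knockout sham array 3, 5 of all probe sets were called between the sham groups, beside 2105 with all arrays. The part of these cell types in the rise of the 10 genes was not tested.

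The naive arrays had a normalization of their own, so their levels are not set against those above. The brightest probe set of Emp1 and of Steap4 was another one here, 1459171_at and 1425829_a_at, which after MCAO were the lesser ones, and these stand for both genes in naive brain. Features of the arrays bear on every value. Wild type array 6 correlated with the other wild type naive arrays at a median r of 0.817 over all probe sets and had an actin difference of 4.88. Pairs of knockout naive arrays shared 3.87% to 6.38% of exactly equal values, pairs of wild type arrays 0.00222% to 0.106%, and the lowest value of an array was 3.19 to 3.28 in knockout arrays and 3.49 to 3.73 in wild type arrays, so that genotype and a difference in processing cannot be told apart here.

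**Figure D5:**
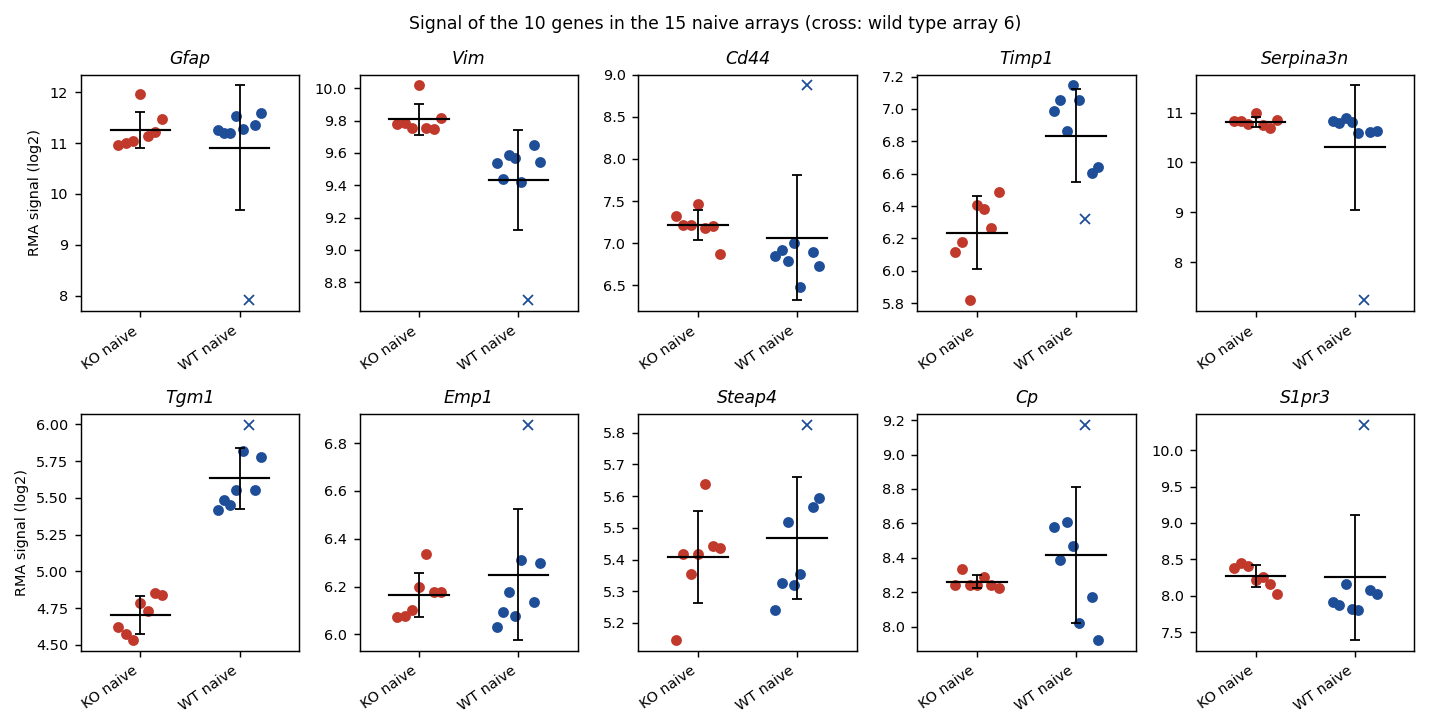
Signal (log2, RMA) of the 10 genes in the 7 knockout and 8 wild type naive arrays by main probe set (for Emp1 and Steap4 not the one of the surgery arrays), each panel on its own axis; lines are means and bars 1 SD over all arrays of the group, and the cross is wild type array 6. Tgm1 is lower in every knockout array than in any wild type array, and the cross lies far from its group in Gfap, Vim, Cd44, Serpina3n and S1pr3.

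With all 15 naive arrays, 2 of the 28 probe sets were called higher in knockout mice and 5 lower, against 8.02% and 12.1% of all probe sets, 20.1% in either direction. Tgm1 had a lowest, median and highest signal of 4.54, 4.73 and 4.85 in knockout arrays, against 5.42, 5.55 and 5.998 in wild type arrays, without overlap, as in 7.19% of all probe sets with every knockout array below and 4.57% with every one above. It was lower in knockout arrays by -0.93 (SE 0.09, adjusted p = 2.03e-05), and by -0.88 without wild type array 6 (adjusted p = 9.90e-07). Timp1 had 5.82, 6.27 and 6.49 in knockout arrays, against 6.32, 6.93 and 7.15 in wild type arrays, where only array 6 lay within the knockout range, and was lower by -0.60 (SE 0.13, adjusted p = 0.00458).

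Vim had 9.75, 9.78 and 10.02 in knockout naive arrays, against 8.69, 9.54 and 9.65 in wild type arrays, and was higher by 0.38 (SE 0.12, adjusted p = 0.0369). Its groups did not overlap, and its call was lost in 9 of the 15 fits that left out 1 array. It was also lost with median centring (0.23, adjusted p = 0.211), with quantile normalization (0.23, adjusted p = 0.0717) and without dim probe sets (0.38, adjusted p = 0.0943). The other calls were Cd44 1423760_at at 0.46, Steap4 1460197_a_at at -0.39, and Cp 1417497_at and 1441326_at at -0.55 and -0.32. Gfap, at 10.95, 11.15 and 11.95 in knockout arrays against 7.90, 11.26 and 11.59 in wild type arrays, was not called (0.34, adjusted p = 0.628).

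Without wild type array 6, 8 member probe sets were called higher and 5 lower, where 39.8% of all probe sets were called. The added calls were the 2 other probe sets of Vim (0.41 and 0.54), Cd44 1434376_at (0.40), Cp 1448735_at (0.40), and S1pr3 1438658_a_at (0.32) and 1437173_at (0.16), all higher in knockout arrays. After quantile normalization of these 14 arrays 4 were called higher and 3 lower, against 25.7% of all: the 3 of Vim and Cd44 1423760_at higher, Timp1 (-0.79), Tgm1 (-0.82) and Cp 1417497_at (-0.70) lower. The shares called among the 28 probe sets were near those among all probe sets in each version. Tgm1, lower in knockout naive arrays, had a difference of 0.65 the other way between the sham groups that was not called, and the pair of differences was not compared in a test.

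In the accompanying lists, with all 15 naive arrays, Lcn2 was lower in knockout naive brain by -1.51 (adjusted p = 0.0082), the neutrophil genes S100a8 and S100a9 by -1.47 and -1.42, Cxcr2 by -0.43, Mpo by -0.39, Il6 by -0.55, Fgf2 by -0.21 and the myelin gene Mal by -0.30. Higher in knockout naive brain were the matrix gene Tnc (0.59), Psmb8 (0.37), Amigo2 (0.44), Cd14 (0.33), the cytokine genes Clcf1 (0.37) and Osm (0.48), the transcription factor Sox9 (0.54), Slc14a1 (0.40), Mmp3 (0.47), Mmp14 (0.62), Sgpl1 (0.28) and Emp2 (0.30). The microglia genes Fcrls (0.64), Siglech (0.60), Cx3cr1 (0.57), P2ry13 (0.46) and Selplg (0.41), the endothelial genes Flt1 (0.57) and Kdr (0.48), Col1a1 (0.61) and Camk2a (0.76) were higher as well. Called higher were 5 of 9 microglia, 2 of 11 endothelial, 2 of 15 astrocyte identity, 1 of 12 meningeal and fibroblast and 1 of 12 neuron markers, and 3 of 16 genes of the Stat3 axis. So were 1 of 13 genes of the general list, 2 of 9 of the A1 list, 2 of 11 of the A2 list and 4 of 30 direct partners. Called lower were 4 of 12 neutrophil and monocyte markers, 1 of 9 oligodendrocyte markers, 2 of 13 genes of the general list and 1 of 16 of the Stat3 axis. Of all genes 7.2% were called higher and 9.05% lower in this comparison, so several of these lists had a share near that of all genes. Their values without wild type array 6 are not given.

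The genes whose signal followed that of a member most closely over the 20 surgery arrays, after the mean of each group was subtracted, are given as a description, with the arrays and their RNA in common. The arrays include knockout MCAO arrays 2, 5 and 7, which stood low in 9 of the 10 genes, and that split enters each of these r values. For Gfap they were Wfs1 (r = 0.821) and S100a16 (0.808), for Vim Ctnna1 (0.939) and Ctsz (0.930), and for Cd44 Il13ra1 (0.907) and Msmo1 (0.895). Timp1 was followed by Angptl4 (0.948) and Lif (0.939), Serpina3n by Il6 (0.951) and C3ar1 (0.943), and Tgm1 by Mmp3 (0.961) and Tspan4 (0.957). For Emp1 they were Msn (0.896) and Myl12a (0.881), for Steap4 Cd151 (0.911) and Ptprc (0.886), for Cp Ntn1 (0.897) and Sparc (0.895), and for S1pr3 Ccr1 (0.931) and Rsu1 (0.919).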

How the data were processed

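Per the labels, 20 surgery arrays and 15 naive arrays were normalized independently. The authors deposited log2 signals made with RMA, per the submitters' processing notes; its version is not given in the sources used here. Of 45101 probe sets 64 were controls. Of the other 45037, 34945 had 1 gene symbol in the platform annotation (34741 updated by Entrez ID), 932 several and 9160 none.

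Linear models were fitted with limma 3.58.1 (lmFit, contrasts.fit, eBayes; R 4.3.3), separately for surgery and naive arrays. Groups came from the labels. The pipeline was tested on simulated data. Arrays hold no counts, and their number limits the precision.

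The 10 genes, the lists and the tests were chosen with earlier results of these data known. Every probe set of the 10 genes is accounted for. In each list the 3 largest called changes after MCAO and every gene called between genotypes are named, and for likeness the 2 closest genes. Same-numbered arrays of the groups compared had deviations correlating at -0.21 to 0.47, so the numbers were not used to pair arrays. Promoters are RefSeq's (GRCm38.p6). Values of the targeted receptor gene are left out.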

Additional observations from a re-analysis of the deposited data

Results flagged for a closer look

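In a test for a single distant array, the highest or lowest array of a group was set apart by its gap to the next one relative to the range of the group (Dixon's criterion). The 10 genes were examined in the groups of 7 or 8 arrays, 40 sets of values in all, and chance alone flags about 1 in 20 of them. Knockout MCAO array 7 was distant in Gfap, at 12.36 where the next array had 12.93, and in Cd44, at 8.98 where the next had 10.50. Wild type MCAO array 4 was distant in Serpina3n, at 11.87 where the next had 12.44. Knockout naive array 4 was distant in Vim, at 10.02 where the next had 9.82.

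Wild type naive array 6 was distant in 6 of the genes. It was the lowest array in Gfap (7.90, next 11.19), Vim (8.69, next 9.42) and Serpina3n (7.23, next 10.60), and the highest in Cd44 (8.88, next 7.01), Emp1 (6.88 in probe set 1459171_at, next 6.31) and S1pr3 (10.35, next 8.16). Results without it stand beside the naive comparison.

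By limma's test of the difference itself, the change after MCAO was called different between the genotypes in Vim 1438118_x_at (1.40, adjusted p = 0.0441) and Steap4 1425829_a_at (-0.61, adjusted p = 0.0399). These were 2 of the 28 probe sets, beside 7.41% of all probe sets. Both also differed between the sham groups, with the opposite sign (-1.33 and 0.53). Both calls were lost with the actin difference as a covariate and in several fits that left out a single array. Neither gene was called by its main probe set.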

How the results depend on the processing

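The 10 main probe sets kept their direction and their call after MCAO in both genotypes under every alternative run, except Steap4, whose call was lost in 3 alternatives and 2 fits without 1 array in knockout mice, and in 2 alternatives and 8 such fits in wild type mice. The array measures relative signal, so dim probe sets and small changes limit what can be seen. Counts below are of the 28 probe sets called, then of all probe sets, and the cause of each shift was not tested unless fewer probe sets or arrays entered.

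With 1 probe set per gene, which tests fewer, 10 and 10 members were called after MCAO in knockout and wild type mice (main 22 and 24), 0 in the difference of changes (main 2), 0 after sham surgery (main 3) and 3 in naive brain (main 7); over all genes 4545, 2901, 1744, 8 (genotype after MCAO), 1101 and 2669 were called, against 8429, 4816, 3336, 59, 2105 and 9046 probe sets. Without dim probe sets the difference of changes had 1 and 1610 calls, the sham comparison 1187 in all, and the naive one 0 and 1249. Median centring left 1 member in the difference of changes. Quantile normalization gave 0 and 628 there, 0 and 621 after sham surgery, and 4 and 5046 in naive brain. With the replicate block, the counts were 3207 of all probe sets in wild type MCAO, 0 members in the difference of changes, and 0 and 1368 after sham surgery; the numbers do not pair the arrays. The block also took the call of Steap4 after MCAO (adjusted p = 0.0755 in knockout and 0.122 in wild type mice) and of Vim in naive brain (adjusted p = 0.0541). The actin covariate gave 4724 of all probe sets after MCAO in knockout mice, 0 and 57 in the difference of changes, 1656 in all between genotypes after MCAO, 0 and 3 after sham surgery, and 13 and 17439 in naive brain. Fitting only the arrays compared gave 18 in all between genotypes after MCAO, and 5 and 6052 after sham surgery. Without both MCAO arrays numbered 4, chosen after seeing the data, there was 1 member in the difference of changes, 35 in all between genotypes after MCAO and 4118 in all after sham surgery.

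Some changes that were not called reversed in sign. For the difference of changes, Steap4 (main -0.00) was 0.081 with median centring and 0.18 with quantile normalization, Gfap (0.18) was -0.051 with quantile normalization, and Serpina3n (0.07) was -0.17 with quantile normalization, -0.052 with the actin covariate and -0.10 without both arrays numbered 4. Between genotypes after MCAO, without both arrays numbered 4, Vim (0.10) was -0.13 and Tgm1 (0.05) was -0.32. After sham surgery Cp (0.00) was -0.035 with median centring and -0.028 with the actin covariate, and Steap4 (-0.08) was 0.25 with the latter. In naive brain Cd44 (0.14) was -0.0030 with median centring and -0.049 with quantile normalization; S1pr3 (0.02) was -0.13 with each of these and -0.016 with the replicate block; Gfap (0.34) was -0.060 with the actin covariate and -0.12 with quantile normalization of 14 arrays, chosen after seeing the data; Steap4 (-0.06) was 0.0 with quantile normalization of 15 arrays and 0.0040 with that of 14; and Emp1 (-0.09) was 0.0016 with the actin covariate.

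Leaving out 1 array at a time, the member counts ran from 0 to 4 for the difference of changes, 0 to 1 between genotypes after MCAO (1 without knockout MCAO array 7), 0 to 4 after sham surgery and 6 to 13 in naive brain (13 without wild type array 6). Counts of all probe sets ran from 3715 to 10030 after MCAO in knockout mice (lowest without knockout sham array 3), 2438 to 5595 in wild type mice (lowest without wild type sham array 1), 0 to 5362 for the difference of changes (0 without knockout sham array 3), 18 to 138 between genotypes after MCAO, 5 to 3327 after sham surgery (5 without knockout sham array 3) and 7153 to 17919 in naive brain. The correlated pairs of the 10 genes numbered 9 to 26 (main 23). In single genes the range crossed 0 for the difference of changes in Gfap (-0.16 to 0.36), Serpina3n (-0.026 to 0.17) and Steap4 (-0.21 to 0.26); after MCAO in Emp1 (-0.35 to 0.057), Steap4 (-0.29 to 0.035), Tgm1 (-0.17 to 0.28) and Vim (-0.026 to 0.22); after sham surgery in Cd44 (-0.45 to 0.084), Cp (-0.14 to 0.26) and Steap4 (-0.34 to 0.079); and in naive brain in Emp1 (-0.12 to 0.0026), Gfap (-0.086 to 0.44) and S1pr3 (-0.046 to 0.32).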
